A study of Mus musculus with 6 samples.

Results

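The primary cilium is the single antenna-like projection that a chondrocyte builds on its mother centriole, and 45 of its genes, among 44788 rows in the count table, are described here across 3 treatments. The 45 were taken by symbol as named subunits of the intraflagellar transport (IFT) complexes, their motors, the BBSome, the transition zone and the ciliary steps of Hedgehog signalling, with no measured value in the rule. All 45 were found and all 45 passed the filter on low counts. The libraries came from chondrocytes that C57BL/6 mice carry in the epiphysis of the femur, which is still largely cartilage after birth, and grew in medium with 10% fetal bovine serum. One group received 10 µM gefitinib, an inhibitor of the kinase of the epidermal growth factor receptor (EGFR), for 30 min and then gefitinib together with 10 ng/ml transforming growth factor alpha (TGF-alpha), a ligand of that receptor, for 48 h. A second group received 10 ng/ml TGF-alpha for 48 h, and the control group received neither for 48 h. All 3 groups were exposed to 0.1% DMSO, the solvent, per the treatment protocol, although the design text names PBS as the control. Gefitinib alone was not analysed here. The age is given as postnatal day 1 in one label, while another calls the cells P2. Each group had 2 libraries, and nothing in the labels says whether these were separate cultures, litters or pools, so each p-value measures the spread between these libraries, which may be technical.

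Total counts lay between 12317407 and 16096263 per library. The labelled cell type was checked with 9 chondrocyte genes, whose summed level was 57750 to 60210 CPM (counts scaled to library size by TMM) with TGF-alpha plus gefitinib, 33600 to 34660 CPM with TGF-alpha and 65200 to 69810 CPM in control. Most of that sum was Col2a1, which averaged 42079 CPM with TGF-alpha plus gefitinib, 27632 CPM with TGF-alpha and 49101 CPM in control. With TGF-alpha against control the log2 fold changes of the 9 genes ran from -3.92 to -0.39, with a median of -1.59. Markers of cells with motile cilia were low: 17 such genes were found, 3 of them (Tekt4, Spag6 and Ccdc67) had no count in any library, the forkhead factor gene Foxj1 had 1 to 4 counts per library, and all 17 together made 9.73 to 9.84 CPM with TGF-alpha plus gefitinib, 9.31 to 11.6 CPM with TGF-alpha and 9.68 to 10.7 CPM in control. Most of that came from Tppp3 (34 to 60 counts per library), Ccdc39 (31 to 53), Rsph1 (18 to 42) and Ccdc40 (6 to 21). Endothelial markers summed to at most 0.649 CPM, and macrophage and blood markers to 2.40 to 3.52 CPM with TGF-alpha plus gefitinib, 9.09 to 10.0 CPM with TGF-alpha and 1.64 to 2.87 CPM in control. Cdh5 and Emcn of endothelium and Ptprc and Emr1 of blood and macrophages were at 0 in all libraries. Osteoblast markers summed to 97.2 to 101 CPM with TGF-alpha plus gefitinib, 55.9 to 60.4 CPM with TGF-alpha and 153 to 155 CPM in control. A set of 17 proliferation genes moved with the groups, at 476 to 481 CPM with TGF-alpha plus gefitinib, 1054 to 1127 CPM with TGF-alpha and 506 to 517 CPM in control. Most of the macrophage and blood sum was Cd68, with 2.19 and 2.96 CPM with TGF-alpha plus gefitinib, 8.22 and 9.74 CPM with TGF-alpha and 1.17 and 1.91 CPM in control, while Csf1r had 0.206 and 0.480 CPM with TGF-alpha plus gefitinib, 0.216 and 0.291 CPM with TGF-alpha and 0.468 and 0.573 CPM in control. The chondrocyte, osteoblast and proliferation sums and Cd68 thus differed between the groups that are compared below, and their part in the results was not tested.

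A cilium grows because kinesin-2 motors carry IFT-B trains loaded with tubulin to the tip, and dynein-2 with IFT-A brings them back. The BBSome moves membrane proteins out of the cilium, and the transition zone at its base decides what may enter. In cartilage the cilium is where Hedgehog signals, including those of Indian hedgehog in the growth plate, are received, and inherited defects of many of these genes shorten the ribs and limbs.

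The summed level of the 45 cilium genes was 1334 and 1309 CPM with TGF-alpha plus gefitinib, 1315 and 1322 CPM with TGF-alpha, and 1314 and 1325 CPM in control, so the groups overlapped after TMM scaling. As a share of all counts, without TMM, the members made 0.135% and 0.133% with TGF-alpha plus gefitinib, 0.133% and 0.135% with TGF-alpha, and 0.126% and 0.129% in control, which then lay below the other 4 libraries. The largest difference of a single member was 1.39-fold in TGF-alpha against control, 1.44-fold in TGF-alpha plus gefitinib against TGF-alpha, and 1.31-fold in TGF-alpha plus gefitinib against control. The median size of a member's change, taken without its sign, was 0.13 on the log2 scale in the comparison of TGF-alpha with control, against 0.23 over all 15362 genes tested, and the median standard error was 0.11 for members and 0.12 for all genes. The same median was 0.19 for members and 0.25 for all genes with gefitinib added to TGF-alpha, and 0.09 and 0.16 for TGF-alpha plus gefitinib against control. In bulk RNA, fewer cells with a given level and less RNA per cell cannot be told apart, and mRNA levels do not give the number or length of cilia.

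**Figure D1:**
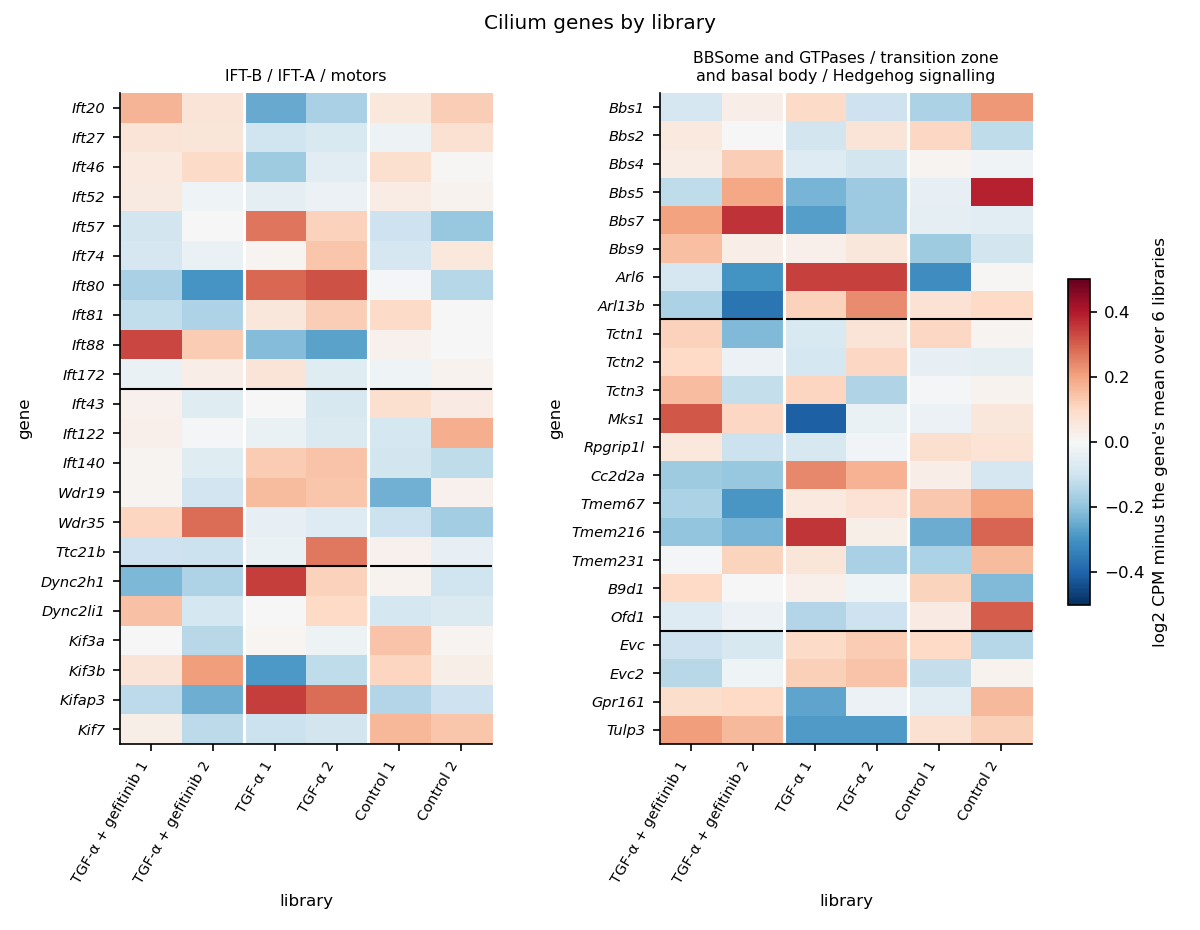
Each of the 45 cilium genes (rows, grouped by role, black lines between roles) in the 6 libraries (columns), coloured by log2 CPM minus the gene's own mean over the libraries. Kifap3, Ift80 and Arl6 are red and Tulp3, Ift20 and Ift88 blue in both TGF-alpha libraries, while rows such as Ift172 and Ift52 stay pale across all 6.

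With TGF-alpha against control, edgeR's quasi-likelihood test called 7 of the 45 members, which is 15.6%, at an adjusted p under 0.05, where it called 29.9% of all tested genes. The kinesin-2 adaptor gene Kifap3, the IFT-B genes Ift80 and Ift57 and the IFT-A gene Ift140 rose, which is 4 members against 15.9% of all genes called higher. The trafficking adaptor gene Tulp3, the IFT-B gene Ift20 and the kinesin-2 motor gene Kif3b fell, which is 3 members against 14.0% of all genes called lower. The median log2 fold change of the members was -0.02, and that of all tested genes was 0.00. For 40 of the 45 members, or 88.9%, the 95% interval of the fold change lay wholly inside a 1.5-fold change in either direction, against 52.4% of all tested genes. All tested genes include genes of lower counts than any member, and this share was not matched for level in any comparison. The 38 uncalled members had log2 fold changes from -0.40 to 0.48, and their intervals reached from -0.99 to 0.92. Fewer members were called without Control 1, Control 2, TGF-alpha 1 or TGF-alpha 2, and fewer of all tested genes were called in those fits too. DESeq2 called 4 members, where it called 3266 of all 15362 genes and edgeR called 4600. Without TGF-alpha plus gefitinib 1, which enters the shared fit, 7 were called higher and 3 lower, and with total-count scaling 8 were higher and 2 lower.

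With TGF-alpha plus gefitinib against TGF-alpha, 13 members were called, which is 28.9% beside 34.0% of all tested genes. The 7 that were higher with gefitinib were Tulp3, Ift20, Ift88, Kif3b, Bbs7, Wdr35 and Mks1 (17.0% of all genes were called higher), and the 6 that were lower were Kifap3, Ift80, Cc2d2a, Dync2h1, Arl13b and Evc2 (16.9% of all genes were called lower). The median log2 fold change was 0.02 for members and 0.01 for all tested genes. The interval lay inside 1.5-fold for 33 members, or 73.3%, against 49.3% of all tested genes. The 32 uncalled members had log2 fold changes from -0.52 to 0.24, with intervals that reached from -0.97 to 0.84. Leaving out either library of TGF-alpha or either library of TGF-alpha plus gefitinib lowered the number called, both among members and among all tested genes. DESeq2 called 9 members, of which 4 were higher. Of all 15362 genes it called 3700, of which 1746 were higher.

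With TGF-alpha plus gefitinib against control, 1 member was called, or 2.22% beside 9.52% of all tested genes. It was the IFT-A gene Wdr35, which was higher (5.27% of all genes were called higher). By edgeR 0 members were called lower, where 4.26% of all genes were, DESeq2 also called 0 lower (and 1 higher), and 2 members were lower at an unadjusted p under 0.05. The median log2 fold change was -0.01 for members and 0.00 for all genes, and 40 members had an interval inside 1.5-fold (88.9% against 61.7% of all genes). The 44 uncalled members lay between -0.39 and 0.33 on the log2 scale, with intervals from -0.74 to 0.62. Without Control 1, Control 2 or TGF-alpha plus gefitinib 2 the call of Wdr35 by edgeR was lost, and fewer of all tested genes were called too. Each pair of comparisons shares the 2 libraries of 1 group, so a member's values in the 3 comparisons are not independent.

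**Figure D2:**
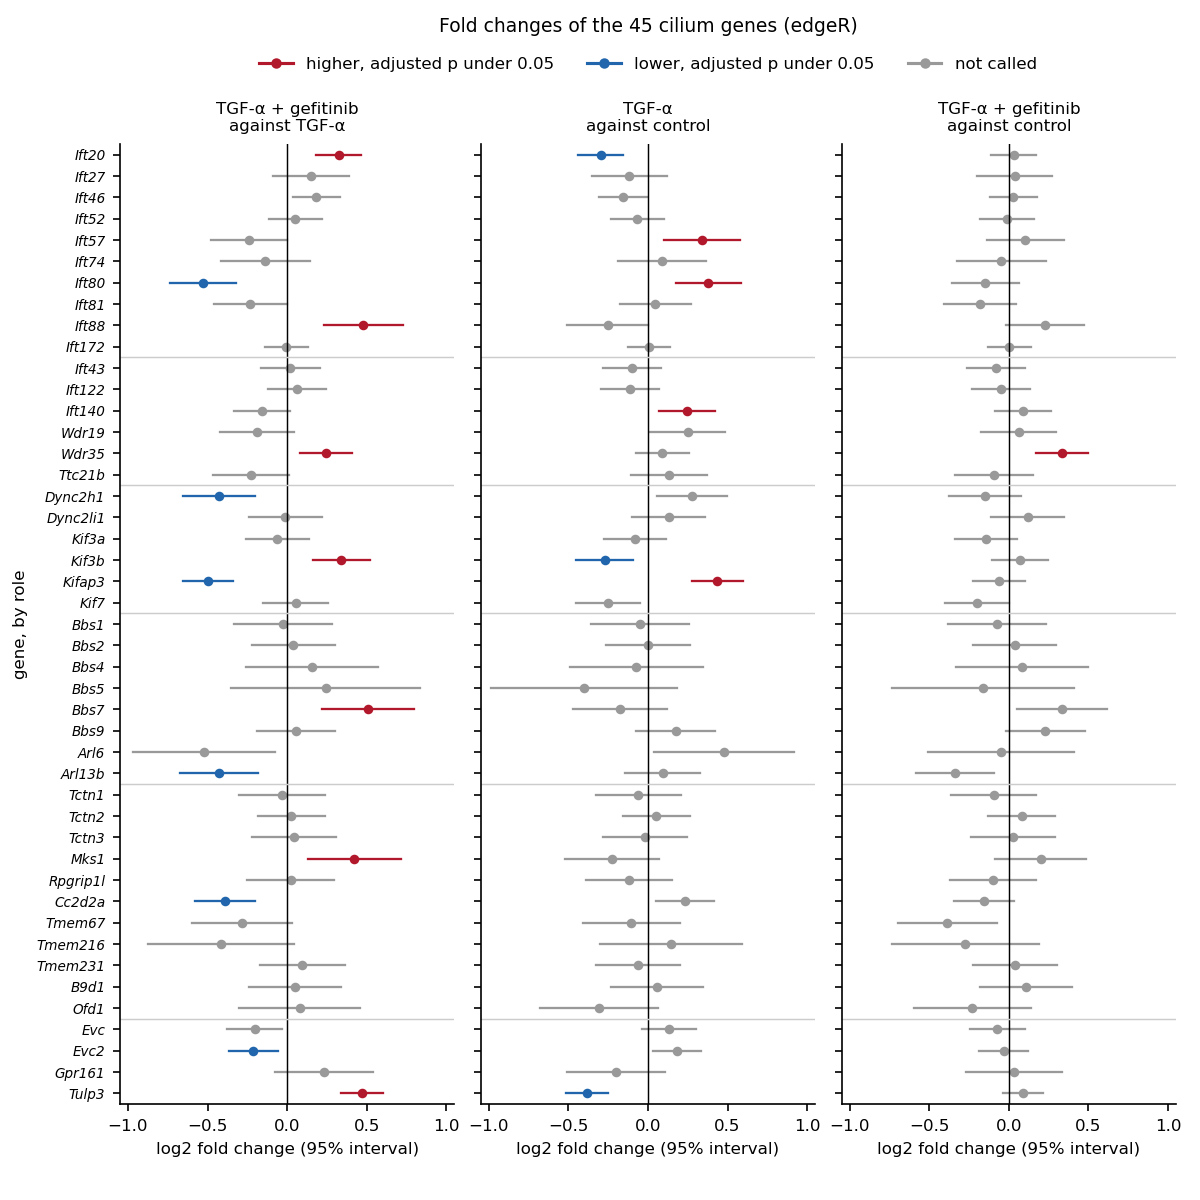
Log2 fold change (points) and 95% interval (lines) of each cilium gene in the 3 comparisons, with called genes in colour and roles divided by grey lines. All points lie between -0.53 and 0.51, and 1 gene, Wdr35, is coloured in the panel of TGF-alpha plus gefitinib against control.

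**Figure D3:**
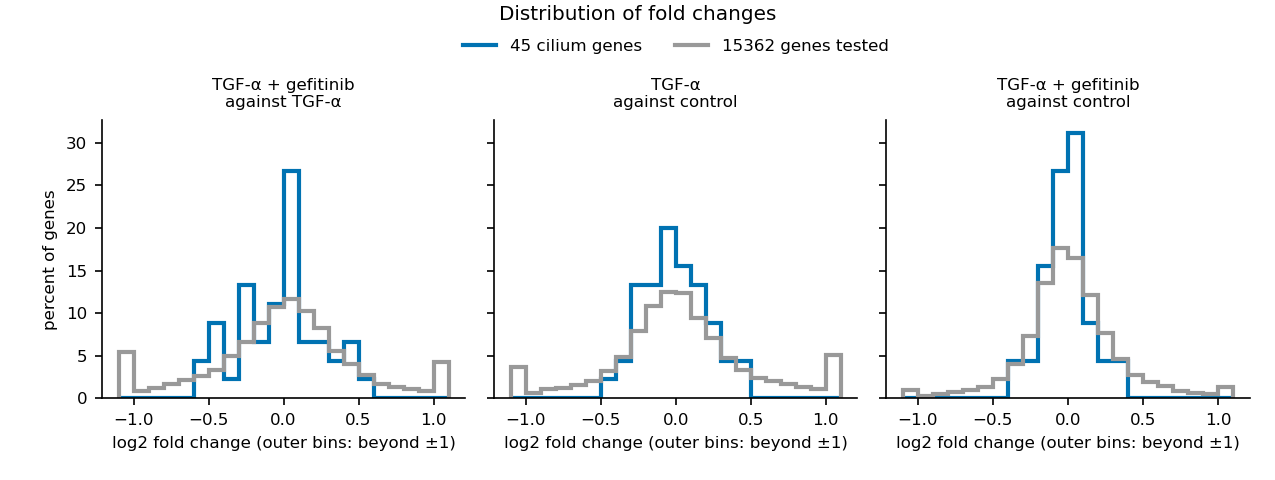
Share of genes (percent, vertical axis) by log2 fold change in bins of 0.1 for the 45 cilium genes and for all 15362 tested genes. The cilium genes occupy the middle of each distribution, and none is in the outer bins beyond ±1, where all tested genes have members in both directions.

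The promoters of cilium genes are known for the X-box, the DNA element bound by RFX factors. RefSeq promoter windows of 300 bases around the start of a gene (GRCm38.p6) were at hand for 40 of the 45 members. A 14-letter pattern, GTTGCC and AAC with NNGNN between them, read on both strands, was in a window of 3 members, or 7.5%, against 0.459% of 27025 genes. The 7-letter GTTGCCA, read on both strands and able to overlap the longer pattern, was in 9 members, or 22.5%, against 5.02% of genes. The 3 members with the longer pattern are shown because they were called differently, Bbs7 and Mks1 being higher with gefitinib added to TGF-alpha and Tctn1 not being called, with the pattern in capitals at base -121, -24 and 37 from the start.
Bbs7, chr3:36613340-36613639, minus strand: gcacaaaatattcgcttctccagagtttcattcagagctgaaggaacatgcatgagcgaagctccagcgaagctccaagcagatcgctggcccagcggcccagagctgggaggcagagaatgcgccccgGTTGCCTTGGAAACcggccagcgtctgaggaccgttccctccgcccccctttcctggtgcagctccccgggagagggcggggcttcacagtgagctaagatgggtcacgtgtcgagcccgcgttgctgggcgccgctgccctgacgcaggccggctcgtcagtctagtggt
Mks1, chr11:87852965-87853264, plus strand: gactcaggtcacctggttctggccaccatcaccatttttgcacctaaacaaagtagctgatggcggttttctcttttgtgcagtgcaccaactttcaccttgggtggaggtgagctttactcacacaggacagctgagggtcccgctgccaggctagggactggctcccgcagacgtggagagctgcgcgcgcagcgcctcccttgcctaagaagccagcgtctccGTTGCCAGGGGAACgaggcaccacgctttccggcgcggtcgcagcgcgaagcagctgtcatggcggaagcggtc
Tctn1, chr5:122264411-122264710, minus strand: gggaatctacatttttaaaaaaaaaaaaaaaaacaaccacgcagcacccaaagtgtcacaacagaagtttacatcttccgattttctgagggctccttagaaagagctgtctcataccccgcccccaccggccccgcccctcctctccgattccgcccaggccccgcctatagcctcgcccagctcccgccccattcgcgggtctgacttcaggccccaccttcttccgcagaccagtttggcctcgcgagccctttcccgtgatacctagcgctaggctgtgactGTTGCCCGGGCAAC
The match reads GTTGCCTTGGAAAC in Bbs7 and GTTGCCAGGGGAAC in Mks1, each on the strand of the gene. In Tctn1 it reads GTTGCCCGGGCAAC, which is the same on both strands. Among the 14 called members with a window, 4 held the shorter pattern, Ift88, Dync2h1, Wdr35 and Mks1, of which 3 were higher and 1 was lower with gefitinib added. A match is a description of the letters, and no binding was measured.

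Per length, the cilium genes covered a wide range of levels. Of the 44 members with a coding transcript in GENCODE M21, Ift20 had the highest level, at 73.6 CPM per kilobase with TGF-alpha plus gefitinib, 58.8 with TGF-alpha and 72.1 in control. Ift43, an IFT-A subunit gene, came next at 44.1 CPM per kilobase with TGF-alpha plus gefitinib, 43.5 with TGF-alpha and 46.6 in control. Tulp3 followed at 26.0 CPM per kilobase with TGF-alpha plus gefitinib, 18.7 with TGF-alpha and 24.4 in control. Gpr161 and the centriolar gene Ofd1 were lowest over all libraries, with 1.86 and 1.68 CPM per kilobase with TGF-alpha plus gefitinib, 1.58 and 1.59 with TGF-alpha, and 1.81 and 1.97 in control. Unscaled, the count of a member in a library lay between 38 and 1443, and 40 of 45 members averaged at least 10 CPM.

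**Figure D4:**
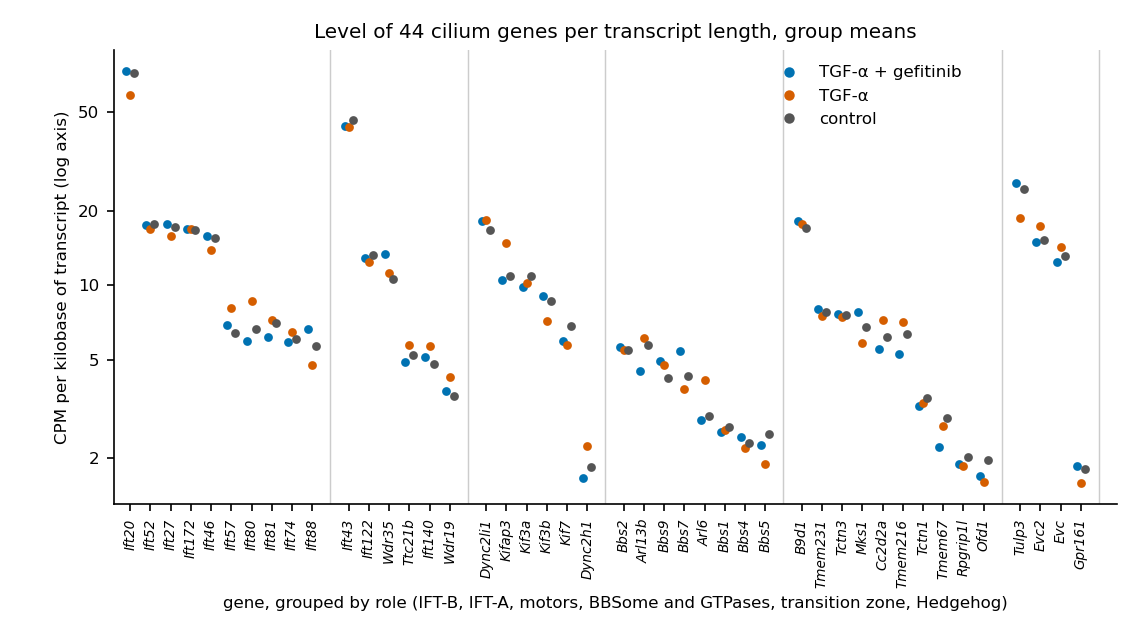
Group mean level of 44 cilium genes in CPM per kilobase of transcript (log axis), sorted by level within each role. Ift20 and Ift43 stand above the rest, and the 3 groups lie close together for most genes.

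Kinesin-2 is the heterotrimer that drives trains outward, made of the motor subunits KIF3A and KIF3B and the adaptor KAP3. Kifap3, which encodes the adaptor (chr1:163779583-163917109 in GRCm38), had 43.6 and 40.4 CPM with TGF-alpha plus gefitinib, 60.7 and 58.0 CPM with TGF-alpha and 43.2 and 44.5 CPM in control. Both TGF-alpha libraries stood above all 4 others. Kifap3 rose with TGF-alpha (log2 fold change 0.44 ± 0.07 SE, adjusted p = 0.000354) and was lower with gefitinib added (log2 fold change -0.50 ± 0.07 SE, adjusted p = 0.000105), and both calls held under each alternative tried. Kif3b (chr2:153291413-153333390) had 48.6 and 53.6 CPM with TGF-alpha plus gefitinib, 38.1 and 42.5 CPM with TGF-alpha and 50.0 and 47.4 CPM in control. Here both TGF-alpha libraries lay below all others. Kif3b fell with TGF-alpha (log2 fold change -0.27 ± 0.08 SE, adjusted p = 0.0233) and was higher with gefitinib added (log2 fold change 0.34 ± 0.08 SE, adjusted p = 0.00567). Of these, the call against control was lost with DESeq2 (adjusted p = 0.0803), with total-count scaling (0.0829) and without Control 1 (0.142), Control 2 (0.0556) or TGF-alpha 1 (0.204). The call with gefitinib was lost without TGF-alpha 1 (0.0792) or TGF-alpha plus gefitinib 2 (0.0582). Kif3a, the obligate motor partner, had 32.4 and 29.5 CPM with TGF-alpha plus gefitinib, 32.7 and 31.9 CPM with TGF-alpha and 35.8 and 32.8 CPM in control, and it was called in none of the 3 comparisons (adjusted p = 0.548 with TGF-alpha against control). The ratio of Kifap3 to Kif3b CPM within a library was 0.897 and 0.754 with TGF-alpha plus gefitinib, 1.60 and 1.36 with TGF-alpha, and 0.863 and 0.940 in control. The ratio is built from genes called in opposite directions with TGF-alpha and adds no evidence to those calls.

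The remaining motor genes are those of the return motor dynein-2 and of the tip kinesin KIF7. Dync2h1, the dynein-2 heavy chain gene, had 23.1 and 24.2 CPM with TGF-alpha plus gefitinib, 34.3 and 29.2 CPM with TGF-alpha and 27.3 and 25.2 CPM in control. The TGF-alpha libraries were the highest of the 6. Dync2h1 was lower with TGF-alpha plus gefitinib than with TGF-alpha (log2 fold change -0.43 ± 0.10 SE, adjusted p = 0.00564), a call lost without TGF-alpha 1 (adjusted p = 0.0871), while TGF-alpha against control gave a log2 fold change of 0.28 (adjusted p = 0.0572). Dync2li1, its light intermediate chain, averaged 24.6 ± 2.85 CPM with TGF-alpha plus gefitinib, 24.9 ± 1.17 CPM with TGF-alpha and 22.7 ± 0.160 CPM in control (SD, n = 2 each) and was called nowhere. Kif7, which organizes the tip where GLI factors gather, averaged 27.2 ± 2.15 CPM with TGF-alpha plus gefitinib, 26.2 ± 0.204 CPM with TGF-alpha and 31.3 ± 0.368 CPM in control, with an adjusted p of 0.058 for TGF-alpha against control. It shares 51 exon bases with Ticrr on the other strand, which rose with TGF-alpha (log2 fold change 1.18 ± 0.25 SE, adjusted p = 0.00228). Over the 6 motor genes the median log2 fold change was 0.02 with TGF-alpha against control, -0.04 with gefitinib added to TGF-alpha, and -0.10 between the TGF-alpha plus gefitinib and control groups.

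**Figure D5:**
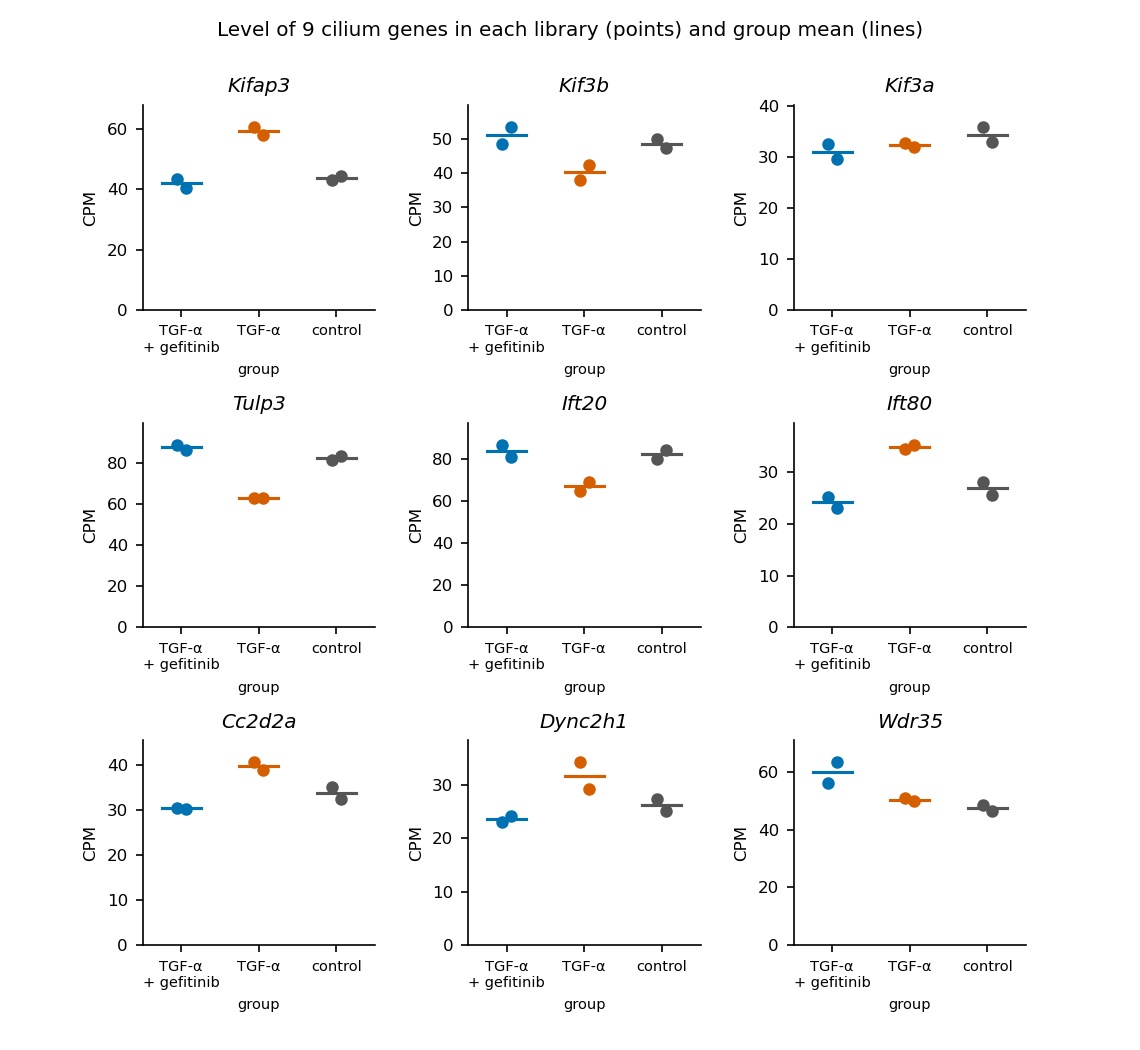
CPM of 9 cilium genes in each library (points) with the group mean (lines), on axes that start at 0. The TGF-alpha points stand above the others for Kifap3, Ift80, Cc2d2a and Dync2h1, below them for Kif3b, Tulp3 and Ift20, and among them for Kif3a. For Wdr35 the points with TGF-alpha plus gefitinib are highest.

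IFT-B builds the outward train, and 3 of its 10 genes were called with TGF-alpha against control, about the 29.9% of all tested genes. Ift20 encodes the subunit that is also found at the Golgi, from where it helps to send membrane proteins to the cilium (chr11:78536361-78541737). It had 87.0 and 80.9 CPM with TGF-alpha plus gefitinib, 65.0 and 69.1 CPM with TGF-alpha and 80.2 and 84.3 CPM in control. The 2 TGF-alpha libraries were the lowest of the 6. Ift20 fell with TGF-alpha (log2 fold change -0.30 ± 0.07 SE, adjusted p = 0.0032), although without TGF-alpha 1 the adjusted p was 0.0501, and it was higher with gefitinib added (log2 fold change 0.33 ± 0.07 SE, adjusted p = 0.00146). Ift80 (chr3:68892499-69004570), whose human counterpart is mutated in a short-rib skeletal dysplasia, had 25.3 and 23.1 CPM with TGF-alpha plus gefitinib, 34.5 and 35.3 CPM with TGF-alpha and 28.2 and 25.7 CPM in control. The TGF-alpha libraries were the highest of the 6. Ift80 rose with TGF-alpha (log2 fold change 0.38 ± 0.09 SE, adjusted p = 0.00682), a call lost without Control 2 (adjusted p = 0.085) or TGF-alpha 2 (0.0525), and was lower with gefitinib added (log2 fold change -0.53 ± 0.10 SE, adjusted p = 0.000592).

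Ift57, a peripheral IFT-B gene, had 17.3 and 18.5 CPM with TGF-alpha plus gefitinib, 22.2 and 20.0 CPM with TGF-alpha and 17.2 and 16.2 CPM in control. Its TGF-alpha libraries lay above the others, and the gene rose with TGF-alpha (log2 fold change 0.34 ± 0.11 SE, adjusted p = 0.0313). It was no longer called with DESeq2 (adjusted p = 0.163), nor without Control 1 (0.0749), Control 2 (0.176) or TGF-alpha 1 (0.207), and in the comparison of TGF-alpha plus gefitinib with TGF-alpha the log2 fold change was -0.24 (adjusted p = 0.115). Ift88, a core subunit without which mouse cells do not build a normal cilium, had 22.0 and 19.0 CPM with TGF-alpha plus gefitinib, 15.0 and 14.5 CPM with TGF-alpha and 17.7 and 17.4 CPM in control. The libraries with gefitinib were the highest and the TGF-alpha libraries the lowest. Ift88 was higher with TGF-alpha plus gefitinib than with TGF-alpha (log2 fold change 0.48 ± 0.12 SE, adjusted p = 0.0051), a call lost without TGF-alpha plus gefitinib 1 (adjusted p = 0.0732), and TGF-alpha against control gave -0.25 on the log2 scale (adjusted p = 0.124). GENCODE places noncoding antisense genes over 225 exon bases of Ift57 and 67 exon bases of Ift88. The counting is not stated to use strand, so reads of those antisense genes cannot be told apart from reads of these members.

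The other 6 IFT-B genes were called in no comparison. Ift52 and the GTPase-like subunit gene Ift27 were the highest of these per length, at 17.6 and 17.6 CPM per kilobase with TGF-alpha plus gefitinib, 16.9 and 15.9 with TGF-alpha, and 17.8 and 17.2 in control. Ift74 and Ift81, whose products together bind tubulin, had log2 fold changes of 0.09 and 0.05 with TGF-alpha against control. Ift172, which encodes the largest protein of the train, had 88.9 and 92.9 CPM with TGF-alpha plus gefitinib, 95.1 and 87.2 CPM with TGF-alpha and 89.6 and 91.9 CPM in control, and its 95% interval with TGF-alpha against control was -0.13 to 0.14 on the log2 scale, among the narrowest of the list. Ift46 had a log2 fold change of 0.18 with gefitinib added (adjusted p = 0.0557), just short of the threshold.

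IFT-A carries returning trains and, with TULP3, brings membrane receptors in. Wdr35 (chr12:8973892-9028847) had 56.4 and 63.6 CPM with TGF-alpha plus gefitinib, 51.0 and 50.1 CPM with TGF-alpha and 48.6 and 46.4 CPM in control. Both libraries with gefitinib stood above the other 4. Wdr35 was higher with TGF-alpha plus gefitinib than in control (log2 fold change 0.33 ± 0.08 SE, adjusted p = 0.012) and than with TGF-alpha (log2 fold change 0.24 ± 0.08 SE, adjusted p = 0.0218). Against control the call did not hold without Control 1 (adjusted p = 0.0578), Control 2 (0.126) or TGF-alpha plus gefitinib 2 (0.131). Against TGF-alpha it was lost with DESeq2 (0.0978) and without TGF-alpha 1 (0.0812), TGF-alpha 2 (0.107) or TGF-alpha plus gefitinib 2 (0.205). For TGF-alpha against control the log2 fold change was 0.09 (adjusted p = 0.428).

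Ift140, another IFT-A gene (chr17:25016085-25099495), had 36.4 and 34.5 CPM with TGF-alpha plus gefitinib, 39.3 and 39.8 CPM with TGF-alpha and 33.8 and 33.0 CPM in control. The TGF-alpha libraries were the highest of the 6, and Ift140 rose with TGF-alpha (log2 fold change 0.24 ± 0.08 SE, adjusted p = 0.0368). This call did not hold with DESeq2 (adjusted p = 0.174), without a filter on low counts (0.0705), or without Control 1 (0.0989), Control 2 (0.161), TGF-alpha 1 (0.106) or TGF-alpha 2 (0.139). The remaining IFT-A genes Ift43, Ift122, Wdr19 and Ttc21b were called nowhere. Ift122 averaged 53.2 ± 0.992 CPM with TGF-alpha plus gefitinib, 50.9 ± 0.984 CPM with TGF-alpha and 54.9 ± 7.26 CPM in control (SD, n = 2 each), and its control libraries lay on either side of all the others. Wdr19 had a log2 fold change of 0.25 with TGF-alpha against control, as large as that of Ift140, with a wider error (adjusted p = 0.105).

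Among the 8 BBSome and small GTPase genes, edgeR called 0 with TGF-alpha against control, beside 29.9% of all tested genes. DESeq2 also called 0 of the 8, and 1 had an unadjusted p under 0.05. Bbs7, a BBSome subunit gene, had 13.8 and 15.4 CPM with TGF-alpha plus gefitinib, 9.88 and 10.5 CPM with TGF-alpha and 11.6 and 11.5 CPM in control. Its gefitinib libraries were the highest and its TGF-alpha libraries the lowest. Bbs7, whose promoter is printed above, was higher with TGF-alpha plus gefitinib than with TGF-alpha (log2 fold change 0.51 ± 0.13 SE, adjusted p = 0.0089), a call lost with DESeq2 (adjusted p = 0.0608) and without TGF-alpha 1 (0.063) or TGF-alpha plus gefitinib 2 (0.066). Arl13b, a GTPase of the ciliary membrane, had 17.1 and 14.8 CPM with TGF-alpha plus gefitinib, 20.6 and 22.4 CPM with TGF-alpha and 20.0 and 20.4 CPM in control. Both gefitinib libraries were below the other 4. It was lower with TGF-alpha plus gefitinib than with TGF-alpha (log2 fold change -0.43 ± 0.11 SE, adjusted p = 0.0092), a call lost without TGF-alpha 2 (adjusted p = 0.0798) or TGF-alpha plus gefitinib 2 (0.0776), and against control the adjusted p was 0.0816. Arl6, the GTPase that recruits the BBSome to membranes, averaged 4.84 ± 0.516 CPM with TGF-alpha plus gefitinib, 6.99 ± 0.0106 CPM with TGF-alpha and 4.99 ± 0.772 CPM in control (SD, n = 2 each). Its 2 TGF-alpha libraries were the highest, but it is a gene of few counts, and its log2 fold changes of 0.48 with TGF-alpha against control and -0.52 with gefitinib added missed the threshold (adjusted p = 0.0995 and 0.0662). Bbs2 and Bbs9 were called in no comparison, at 5.62 and 4.94 CPM per kilobase with TGF-alpha plus gefitinib, 5.47 and 4.76 with TGF-alpha, and 5.49 and 4.21 in control. Bbs5 had the fewest counts of the 45, and its interval with TGF-alpha against control was -0.99 to 0.18 on the log2 scale, so a change of moderate size was not detectable there at this depth.

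Of the 11 transition zone and basal body genes, edgeR and DESeq2 each called 0 with TGF-alpha against control, where edgeR called 29.9% of all tested genes. Among the 11, 1 had an unadjusted p under 0.05. That one was Cc2d2a, a transition zone gene (chr5:43662346-43740972), which had 30.5 and 30.2 CPM with TGF-alpha plus gefitinib, 40.7 and 38.9 CPM with TGF-alpha and 35.2 and 32.5 CPM in control. The TGF-alpha libraries were the highest and the gefitinib libraries the lowest. Cc2d2a was lower with TGF-alpha plus gefitinib than with TGF-alpha (log2 fold change -0.39 ± 0.09 SE, adjusted p = 0.00282), and this call held under each alternative tried, while TGF-alpha against control gave a log2 fold change of 0.23 and an adjusted p of 0.0521. Mks1, a partner of B9D1 in the same gate, had 20.9 and 18.1 CPM with TGF-alpha plus gefitinib, 12.7 and 16.4 CPM with TGF-alpha and 16.5 and 17.5 CPM in control. TGF-alpha 1 was the lowest library by some distance, and TGF-alpha 2 was just below Control 1. Mks1, also printed above, was higher with TGF-alpha plus gefitinib than with TGF-alpha (log2 fold change 0.42 ± 0.14 SE, adjusted p = 0.0265), a call lost with DESeq2 (adjusted p = 0.0994) and without TGF-alpha 1 (0.261) or TGF-alpha plus gefitinib 1 (0.206). B9d1 and Tmem231 were the highest uncalled of these 11 genes per length, at 18.2 and 8.03 CPM per kilobase with TGF-alpha plus gefitinib, 17.6 and 7.50 with TGF-alpha, and 17.1 and 7.79 in control. The tectonic genes Tctn1, Tctn2 and Tctn3 had log2 fold changes of -0.06, 0.05 and -0.02 with TGF-alpha against control. Ofd1, Tctn1, Tmem67 and Tmem216, none of them called, each share exon bases with a gene on the other strand, as do Kif7, Arl6 and Bbs4. For Bbs4 that gene is Adpgk, with 194 shared bases. Adpgk had 56.1 and 57.8 CPM with TGF-alpha plus gefitinib, 41.5 and 41.1 with TGF-alpha and 52.9 and 56.7 in control. For Tmem216 it is Cpsf7, with 169 shared bases and 65.95 to 77.8 CPM per library. Bbs4 and Tmem216 themselves averaged 5.81 and 6.86 CPM, and the part of such reads in their counts was not tested. For Tctn1 that gene is Hvcn1, with 1574 shared bases, which had 3.63 and 4.72 CPM with TGF-alpha plus gefitinib, 1.51 and 0.945 CPM with TGF-alpha and 1.48 and 1.97 CPM in control.

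Tulp3 and Evc2 were the called members of the 4 genes that act in Hedgehog signalling at the cilium. Tulp3 (chr6:128321161-128355851), which couples IFT-A to receptors such as GPR161 and is known as a negative regulator of Hedgehog signalling in mouse embryos, had 89.0 and 86.2 CPM with TGF-alpha plus gefitinib, 63.2 and 63.2 CPM with TGF-alpha and 81.2 and 83.6 CPM in control. The TGF-alpha libraries stood below the others and nearly coincided. Tulp3 fell with TGF-alpha (log2 fold change -0.38 ± 0.06 SE, adjusted p = 0.000194) and was higher with gefitinib added (log2 fold change 0.47 ± 0.06 SE, adjusted p = 2.49e-05), and both calls held under each alternative tried. Gpr161 itself, a receptor that holds the pathway down, had 12.7 and 12.8 CPM with TGF-alpha plus gefitinib, 9.95 and 11.7 CPM with TGF-alpha and 11.5 and 13.4 CPM in control and was called nowhere (log2 fold change -0.20 with TGF-alpha against control, adjusted p = 0.332). Evc2, which with EVC tethers the activated Smoothened protein near the base of the cilium, had 58.9 and 63.7 CPM with TGF-alpha plus gefitinib, 70.3 and 71.5 CPM with TGF-alpha and 59.6 and 65.5 CPM in control. Its TGF-alpha libraries were the highest. Evc2 was lower with TGF-alpha plus gefitinib than with TGF-alpha (log2 fold change -0.21 ± 0.07 SE, adjusted p = 0.0324), a call lost with DESeq2 (adjusted p = 0.109) and without TGF-alpha 1 (0.101), TGF-alpha 2 (0.139) or TGF-alpha plus gefitinib 1 (0.16). Evc, its neighbour on chromosome 5, was not called, with 53.4 and 54.3 CPM with TGF-alpha plus gefitinib, 61.3 and 62.7 CPM with TGF-alpha and 61.5 and 52.0 CPM in control and an adjusted p of 0.0635 for TGF-alpha plus gefitinib against TGF-alpha.

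Other genes of the cilium were read from lists made for this purpose. Of 21 further IFT, motor and BBSome genes tested, edgeR called 1 with TGF-alpha against control, beside 29.9% of all tested genes, and DESeq2 called 0. The 1 called was the GTPase gene Arl3 (log2 fold change 0.33 ± 0.10 SE, adjusted p = 0.0251), which is known for releasing lipidated cargo in the cilium. With gefitinib added to TGF-alpha, 1 rose and 1 fell, where 17.0% of all tested genes were called higher and 16.9% lower. The dynein light chain gene Dynlrb1 rose (log2 0.25, adjusted p = 0.00914). The chaperonin-like gene Bbs12 fell (log2 -0.82, adjusted p = 0.0203), a call lost with DESeq2. In TGF-alpha plus gefitinib against control edgeR and DESeq2 each called 0 of the 21, where edgeR called 9.52% of all tested genes. At an unadjusted p under 0.05, 2 of the 21 were higher and 3 lower. Of 15 further transition zone and inversin compartment genes, edgeR called 1 higher and 2 lower with TGF-alpha, beside 15.9% and 14.0% of all tested genes. DESeq2 called 1 of the 15 higher and 0 lower. The inversin compartment kinase gene Nek8 rose (log2 fold change 0.54 ± 0.11 SE, adjusted p = 0.00207) to 24.9 ± 1.78 CPM with TGF-alpha, against 17.1 ± 1.66 CPM in control (SD, n = 2 each), while Ahi1 (log2 -0.26) and Invs (log2 -0.23) were lower by edgeR and not called by DESeq2. With gefitinib added, Nek8 was lower (log2 -0.72, adjusted p = 0.000211) and Ahi1 (log2 0.32) and Tmem17 (log2 1.20) were higher. Against control, TGF-alpha plus gefitinib gave 0 calls among the 15 by edgeR, beside 9.52% of all tested genes, and 0 by DESeq2. At an unadjusted p under 0.05, 1 of the 15 was higher. Of 7 tested tubulin-modifying enzymes, edgeR and DESeq2 each called 0 in any comparison. In TGF-alpha against control, gefitinib added to TGF-alpha and TGF-alpha plus gefitinib against control, 0, 1 and 1 had an unadjusted p under 0.05. In the same order, edgeR called 29.9%, 34.0% and 9.52% of all tested genes.

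Among 27 basal body and ciliogenesis genes, edgeR called 7 higher and 3 lower with TGF-alpha, where 15.9% and 14.0% of all genes were, and DESeq2 called 4 higher and 1 lower. Kif24, whose product is known to restrain cilium assembly at the centriole, rose to 5.90 ± 0.939 CPM with TGF-alpha, against 2.55 ± 0.0801 CPM in control (log2 fold change 1.20 ± 0.25 SE, adjusted p = 0.0018), and the ciliary kinase gene Cdk20 rose with it (log2 0.59, adjusted p = 0.00525). The third by p was the receptor gene Mchr1, a gene of few reads that passed the filter on low counts through the groups where it was higher, with 7 and 13 counts with TGF-alpha plus gefitinib, 12 and 23 with TGF-alpha and 2 and 3 in control. With gefitinib added edgeR called 7 of the 27 lower and 1 higher, beside 16.9% and 17.0% of all tested genes, and DESeq2 called 4 lower and 0 higher. The calls by edgeR were led by the distal appendage gene Fbf1 (log2 -0.39), the ciliogenesis gene 2700049A03Rik (log2 -0.72), which is the mouse Talpid3 gene, and the RFX factor gene Rfx2 (log2 -0.95). Against control, edgeR called 2 of the 27 lower with TGF-alpha plus gefitinib, beside 4.26% of all tested genes, and DESeq2 called 0. The 2 were Azi1 (log2 -0.39, adjusted p = 0.0282) and Fbf1 (log2 -0.22, adjusted p = 0.0323).

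The list of genes known for taking cilia apart held 9 tested members, of which 5 rose and 1 fell with TGF-alpha, where 15.9% of all tested genes were called higher and 14.0% lower. The mitotic kinase gene Plk1 rose to 43.9 ± 5.63 CPM with TGF-alpha, against 17.0 ± 0.783 CPM in control (log2 fold change 1.36 ± 0.11 SE, adjusted p = 1.86e-07), and the centrosomal kinase gene Nek2 rose as well (log2 1.26, adjusted p = 5.12e-06). Nedd9, the scaffold that activates Aurora A at the cilium, fell (log2 fold change -0.51 ± 0.07 SE, adjusted p = 3.3e-05). With gefitinib added to TGF-alpha 6 of the 9 fell, beside 16.9% of all tested genes, led by Plk1 (log2 -1.24), Aurka (log2 -1.21) and Tacc3 (log2 -0.86). Against control, 2 of the 9 were lower with TGF-alpha plus gefitinib, beside 4.26% of all tested genes. They were Nedd9 (log2 -0.35) and Kif2a (log2 -0.34), of which DESeq2 called 1. Of the 17 proliferation genes, 17 rose with TGF-alpha, beside 15.9% of all tested genes, and 17 fell with gefitinib added, beside 16.9%. Most genes of the disassembly list also serve mitosis, and a link to proliferation was not tested.

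Of 19 tested genes of the ciliary membrane and of Hedgehog transduction, 3 rose and 4 fell with TGF-alpha, close to the 29.9% called over all tested genes. With gefitinib added to TGF-alpha 2 rose and 7 fell, where 34.0% of all tested genes were called. The Hedgehog co-receptor gene Boc fell to 157 ± 11.9 CPM with TGF-alpha, against 280.3 ± 3.50 CPM in control (log2 fold change -0.84 ± 0.06 SE, adjusted p = 3.74e-08). Smo, the transducer that enters the cilium, had 339 and 341 CPM with TGF-alpha plus gefitinib, 261 and 265 CPM with TGF-alpha and 349 and 329 CPM in control. It fell with TGF-alpha (log2 fold change -0.37 ± 0.05 SE, adjusted p = 2.9e-05) and was higher with gefitinib added (log2 0.37, adjusted p = 2.46e-05). The polycystin gene Pkd1 also fell with TGF-alpha (log2 -0.24, adjusted p = 0.00094), and the factor gene Gli3 was lower with gefitinib added (log2 -0.45, adjusted p = 0.000351). Against control 4 of the 19 were lower and 0 higher with TGF-alpha plus gefitinib, where 4.26% and 5.27% of all tested genes were. Among the 4 were Boc (log2 -0.38), the co-receptor gene Gas1 (log2 -0.29) and Gli3 (log2 -0.37). Of the pathway's target genes, Gli1 had 2 to 8 counts per library and was not tested. Ptch1 had 36.1 and 30.0 CPM with TGF-alpha plus gefitinib, 37.4 and 38.5 CPM with TGF-alpha and 43.2 and 38.9 CPM in control. Both libraries with gefitinib lay below all the others. Against control alone, these libraries lay below both control libraries for 3938 of all 15362 tested genes. With TGF-alpha against control Ptch1 was not called (log2 -0.11, adjusted p = 0.442).

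Several members share their promoter region with another gene. Only genes that do not overlap the member were counted here, so pairs that overlap at their starts are left out. Such a protein-coding gene on the opposite strand started within 1000 bases of the start of 8 members: Smc4 of Ift80, Tnfaip1 of Ift20, Arcn1 of Ift46, Mbd4 of Ift122, Cramp1l of Ift140, Dcun1d5 of Dync2h1, Entpd1 of Tctn3 and Fto of Rpgrip1l. These neighbours were looked up after the members' values were seen. Smc4, a condensin gene used in mitosis whose start lies 168 bases from that of Ift80, had 43.9 and 52.4 CPM with TGF-alpha plus gefitinib, 79.5 and 75.8 CPM with TGF-alpha and 56.0 and 61.7 CPM in control. Like Ift80, it was highest in both TGF-alpha libraries, and it rose with TGF-alpha (log2 fold change 0.40 ± 0.08 SE, adjusted p = 0.00183) and fell with gefitinib added (-0.69 ± 0.08, adjusted p = 1.42e-05). Against control Smc4 was lower with TGF-alpha plus gefitinib (-0.30 ± 0.09, adjusted p = 0.0428). The neighbour of Ift20 was not called in any comparison: Tnfaip1, 29 bases away, had 105 and 106 CPM with TGF-alpha plus gefitinib, 111 and 110 CPM with TGF-alpha and 102 and 111 CPM in control (adjusted p = 0.54 with TGF-alpha against control). Of the 8 neighbours, 5 were called in no comparison, among them Dcun1d5 beside the called Dync2h1. Mbd4, beside the uncalled Ift122, was lower with TGF-alpha plus gefitinib than with TGF-alpha (log2 -0.97 ± 0.27, adjusted p = 0.0131) and than in control (-0.995 ± 0.27, adjusted p = 0.0329). Cramp1l fell with TGF-alpha (log2 -0.40 ± 0.09, adjusted p = 0.00323) where Ift140 rose.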

How the data were processed

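RNA of 6 libraries, 2 per group, was read on an Ion Proton sequencer, as the labels' protocols state. The authors deposited read counts per gene as whole numbers, not normalized, with 1 column per library and 44788 rows. Reads were placed on GRCm38, per the submitters' processing notes. Neither aligner nor counter, annotation or strand setting was stated (not given in the sources used here), which leaves the assignment of reads from overlapping genes unknown. The cilium genes, the wider lists and the marker lists were chosen with earlier results of these data known.

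The tests used edgeR 4.0.16 under R 4.3.3. A minimum count of 10 in filterByExpr left 15362 genes, and library sizes were scaled by TMM. A quasi-likelihood model with group as its only term was fitted to all 6 libraries (3 residual and 11.2 prior degrees of freedom), with Benjamini-Hochberg adjustment over all genes tested and a threshold of 0.05. Intervals are 95% intervals, and the common dispersion gave a coefficient of variation of 6.08% beyond counting noise. Alternatives were DESeq2 size factors in edgeR, total-count scaling, no filter, DESeq2 1.42.0, a replicate block, a fit to the 2 groups compared and each library left out. The fits were tested on simulated data. Same-numbered libraries of different groups did not deviate together (r = 0.003, 0.011 and -0.023), so the numbers were not taken to pair them.

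All called members are described with full values, the uncalled by range with the 2 of highest level per kilobase in each role, and up to 3 called genes of smallest p are named per wider list and comparison. Positions and lengths (longest coding transcript of the basic set) came from GENCODE M21, which gave no coding transcript for Tctn2, and promoters from RefSeq (GRCm38.p6).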

Additional observations from a re-analysis of the deposited data

How the results depend on the processing

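Of 252 values of called members under the 12 alternatives, 211 kept the call, 41 lost it and 0 changed direction, and 7 of the 21 called results kept the call under every alternative. With TGF-alpha against control, DESeq2 called 4 members, of which 2 were higher. Of all 15362 genes it called 3266, of which 1758 were higher. Total-count scaling called 8 members higher, beside 3034 of all genes. That scaling raised the median log2 fold change of all genes to 0.069 in this comparison and turned the members' median to 0.044. With gefitinib added to TGF-alpha, DESeq2 called 4 members higher, beside 1746 of all genes. Leaving out 1 library at a time gave 3 to 10 members called, 2 to 7 higher and 1 to 4 lower with TGF-alpha against control. It gave 8 to 14 called, 3 to 7 higher and 4 to 7 lower with gefitinib added to TGF-alpha, and 0 to 1 called, 0 to 1 higher, with TGF-alpha plus gefitinib against control. Where a library left out leaves 1 in its group, that one is assumed to vary like the other groups. With the replicate block 7, 13 and 1 members were called in these comparisons, as without it, although the numbers share nothing that the labels state. The causes of these shifts were not tested. With 2 libraries per group, members with few counts such as Bbs5 and Arl6 had the widest intervals.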
